A study of Mus musculus with 6 samples.

Results

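Hearts that carried JMJD2A as a heart-specific transgene were compared with wild-type hearts after thoracic aortic constriction (TAC), a band that makes the left ventricle pump against a higher pressure. The comparison used 4 of the 6 arrays of the series, chosen by their titles: 2 arrays of wild-type mice after TAC and 2 arrays of JMJD2A-transgenic mice after TAC. Both groups had the FVB background, an age of 8 weeks in the sample labels and hearts taken 3 weeks after surgery; the design text gives the age in years. They differed by the transgene alone as far as the labels say, and neither of these groups was sham-operated. The sources used here do not give the promoter of the transgene, the species of its sequence, the number of founder lines or any pooling of animals. The labels do not say that the arrays of a group hold separate animals, so a p-value here measures only the spread between samples, which may be technical. Each array measured total heart RNA with Illumina bead probes, and 2 arrays a group limit the precision of every value.

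JMJD2A, encoded by Kdm4a, is a demethylase that removes methyl groups from lysine 9 and lysine 36 of histone H3, marks tied to silent chromatin and to transcribed gene bodies. Under pressure load the heart muscle thickens, turns genes of the fetal heart back on, such as those for natriuretic peptides and skeletal actin, and lays down collagen. Many of these genes are bound by serum response factor (SRF), which reads a DNA element called the CArG box and works with cofactors such as myocardin, the LIM protein FHL2 and the inhibitory homeodomain protein HOPX.

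Kdm4a itself did not pass the test (adjusted p = 1.00): its tested probe read 6.51 and 6.64 on the wild-type arrays and 6.75 and 6.45 on the transgenic arrays (log2 intensity; difference 0.03 ± 0.17 SE). A second probe gave a difference of 0.17, from 6.44 and 6.40 to 6.86 and 6.32, and the remaining probe, below the intensity filter, gave -0.13. The groups overlapped at the tested probe and at the second one. Where these probes lie relative to the transgene is not known here, so they do not check the genotype labels, and the groups are called by their labels. Of 14 heart muscle markers 13 were tested, and all 13 lay at or above the 97.6th percentile of all probes in wild-type arrays. None of them passed the test.

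Of 11141 genes tested with limma, 25 passed at an adjusted p under 0.05, which is 0.224%: 16 were higher in transgenic hearts (0.144%) and 9 were lower (0.0808%), and none of the 25 had overlapping groups. Among the genes past the test, the greatest increases were those of Nrxn3 and Sult4a1, best known from nerve cells, and the muscle cofactor gene Vgll2. Among them the greatest decreases were those of Acta2, smooth muscle actin, Pdlim3, a Z-disc LIM protein, Slc24a2, a sodium-calcium exchanger, and Hopx. An unadjusted p under 0.05 was reached by 631 genes. A log2 difference of at least 1 was seen in 71 genes (0.637%), 44 higher and 27 lower. Both transgenic arrays lay above both wild-type arrays in 15.4% of genes and below both in 16.7%. The median difference over all tested genes was -0.003, with 49.2% of genes higher and 50.8% lower.

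**Figure D1:**
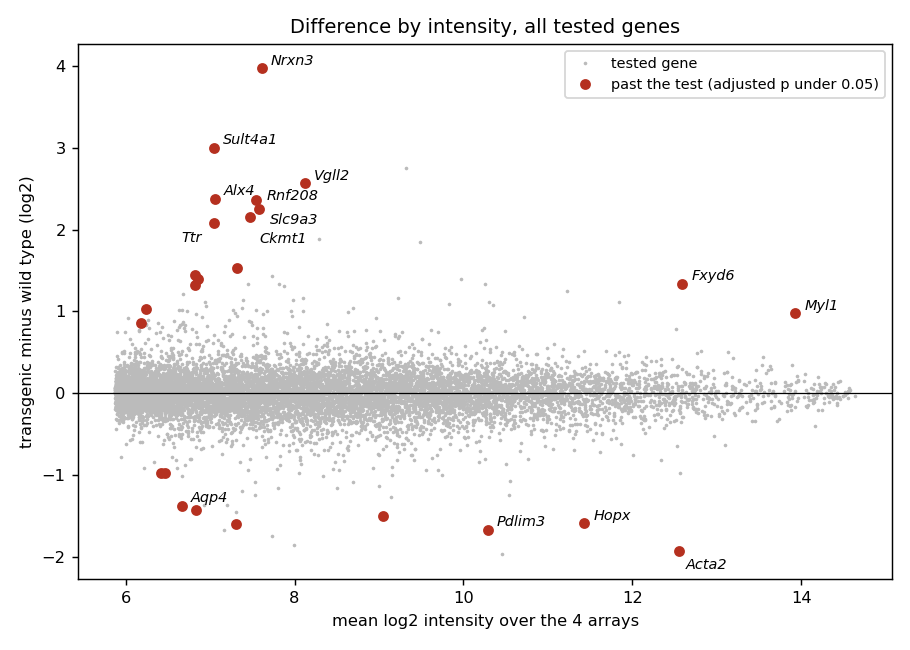
Difference between transgenic and wild-type TAC arrays (log2, vertical axis) against the mean log2 intensity over the 4 arrays (horizontal axis) for 11141 genes; red points are the 25 genes past the test. Most red points above 0 lie at the dim left end, and Fxyd6, Myl1, Hopx, Pdlim3 and Acta2 lie among bright genes.

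The 2 arrays of a group were not equally alike in both genotypes. The SD of the log2 difference between array 1 and array 2, over the tested genes, was 0.252 for the wild-type pair and 0.392 for the transgenic pair, beside 0.251 for the difference between the group means. Between the transgenic arrays 252 genes (2.26%) were at least 1 apart, 176 of them higher in transgenic TAC 1, against 38 genes (0.341%) between the wild-type arrays. The first principal component, with 47.4% of the variance, set transgenic TAC 1 (25.7) apart from transgenic TAC 2 (-13.2) with both wild-type arrays between them, whereas the second, with 34.2%, placed wild type at 10.1 and 13.2 and transgenic hearts at -4.13 and -19.1. Xist, the RNA that coats the silenced X chromosome of female cells, read 10.50 and 5.38 in wild type and 10.36 and 11.03 in transgenic hearts. Sex is not among the labels, and its part in the differences was not tested. In a fit with Xist as a covariate 14 of the 25 genes kept their call. Xist was low in wild-type TAC 2 alone, so that fit cannot tell sex from other traits of that array.

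The calls rested on which array was left out. The test called 2 genes without wild-type TAC 1, and 1 gene when wild-type TAC 2 was left out instead, since the spread then came from the transgenic pair alone. It called 75 genes without transgenic TAC 1 and 190 without transgenic TAC 2, where the spread came from the wild-type pair alone, and all 25 genes were among both. Only Nrxn3 kept its call in all 4 of these fits, and all 25 genes kept their direction in them. With the median over a gene's probes in place of the brightest probe 5 genes passed, all of them higher.

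The 16 raised genes were mostly dim in wild-type hearts. In 14 of them (87.5%) the wild-type mean lay below a log2 intensity of 7, and the median of all probes was 5.82. The intensity filter, 5.88 on the log2 scale, was set on the mean of the 4 arrays, and 5 raised genes (Alx4, Mns1, Nrxn3, St8sia5 and Sult4a1) passed it through the transgenic arrays only. A dim wild-type level is in part set by that choice and is a description, not a finding. The table used here holds no detection values, so whether such readings stand above background is not known, and ratios against them have no exact meaning as fold changes.

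**Figure D2:**
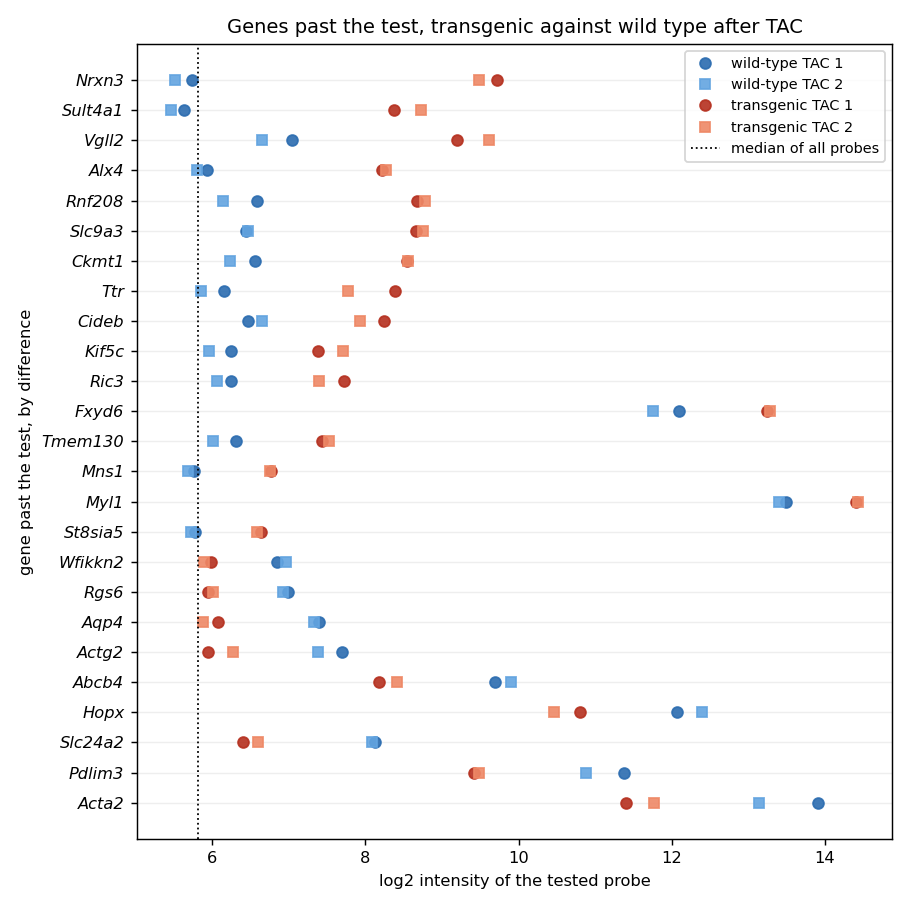
Log2 intensity (horizontal axis) of the 25 genes past the test, ordered by difference, on the 2 wild-type TAC arrays (blue) and the 2 transgenic TAC arrays (red); the dotted line is the median of all probes, 5.82. In every gene the blue and red points are apart, and the raised genes other than Fxyd6 and Myl1 start at the dim end of the scale.

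Among genes of nerve cells, Nrxn3, a neurexin that joins synapses from the sending side, had the greatest increase. It read 5.74 and 5.51 in wild-type hearts and 9.71 and 9.49 in transgenic hearts, a log2 difference of 3.97 ± 0.21 (adjusted p = 4.29e-04). Both wild-type readings were below the intensity filter and the median of all probes, and both transgenic ones were far above them. Sult4a1, a sulfotransferase of the brain, read 5.63 and 5.47 against 8.38 and 8.73 (3.00 ± 0.20, adjusted p = 0.00128). Ric3, a chaperone of nicotinic acetylcholine receptors, read 6.24 and 6.07 against 7.72 and 7.39 (1.40 ± 0.19). Kif5c, a kinesin motor enriched in neurons, read 6.24 and 5.96 against 7.38 and 7.71 (1.44 ± 0.19). St8sia5, a sialyltransferase that builds gangliosides, read 5.78 and 5.73 against 6.64 and 6.58 (0.86 ± 0.12). The groups were well apart in all 5 genes. Without wild-type TAC 1 Nrxn3 had adjusted p = 0.0186 and without wild-type TAC 2 it had 0.0495, while Sult4a1 had 0.0802 and 0.115, Ric3 0.392 and 0.718, Kif5c 0.269 and 0.718, and St8sia5 0.422 and 0.650.

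Kif5c and St8sia5 are not in the list of neuronal and synaptic genes, and were placed with nerve cell genes after they had passed. That placing is a description and does not show that nerve cell genes went one way. Of 40 listed neuronal and synaptic genes 37 had a probe and 13 were tested, of which 3 passed higher (Nrxn3, Sult4a1 and Ric3) and none lower. The list's median difference was 0.01, with 4 genes (30.8%, against 15.4% of all genes) wholly above wild type, that is with both transgenic arrays above both wild-type arrays, and 3 (23.1%, against 16.7%) wholly below. The 4 include the 3 called genes, of which Nrxn3 and Sult4a1 passed the intensity filter through the transgenic arrays only. The share wholly above and the sums that follow are therefore in part set by that filter. Dbh, dopamine beta-hydroxylase of sympathetic nerves, read 6.58 and 6.79 in wild type and 5.86 and 5.67 in transgenic hearts (-0.92 ± 0.14, adjusted p = 0.0539). Of the 6 tested Schwann cell markers none passed, and their median was -0.01. The intensities of the 13 neuronal genes summed to 3205 and 3131 on the wild-type arrays and to 4419 and 4296 on the transgenic arrays. Without the 3 called genes the other 10 summed to 3027 and 2974 against 3037 and 2988, so the 3 carried the difference.

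Among genes of muscle and of transcription, Vgll2, a cofactor of TEAD factors in skeletal muscle, rose 5.92-fold, from 7.04 and 6.65 to 9.20 and 9.62 (2.57 ± 0.25, adjusted p = 0.00764). Myl1, the alkali light chain of fast skeletal and embryonic heart myosin, was bright already in wild type and read 13.50 and 13.39 against 14.41 and 14.43 (0.97 ± 0.11, adjusted p = 0.0201). Alx4, a homeobox gene of limb and skull development, read 5.94 and 5.80 against 8.22 and 8.27 (2.37 ± 0.18). The transgenic arrays agreed closely for Myl1 and Alx4 and lay above wild type in both. Of 14 tested skeletal muscle genes 2 passed higher (Vgll2 and Myl1) and none passed lower. The list's median was -0.11, with 9 of 14 lower, 5 (35.7%) wholly below wild type against 16.7% of all genes, and 3 (21.4%) wholly above against 15.4%. Myh8, the perinatal myosin heavy chain, read 9.99 and 10.06 in wild type and 8.92 and 9.25 in transgenic hearts (-0.95 ± 0.20, adjusted p = 0.201), although the median over its probes gave 0.50. Among 24 tested cardiac transcription factors Vgll2 was the only one past the test, and the list's median was 0.00. With wild-type TAC 1 or else wild-type TAC 2 left out the adjusted p was 0.136 and 0.256 for Vgll2, 0.136 and 0.256 for Alx4, and 0.245 and 0.476 for Myl1. The rise of Alx4 rested on its brightest probe, since the median over its probes was 0.12.

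Among genes of membrane transport and energy supply, Slc9a3, the sodium-proton exchanger of gut and kidney epithelium, read 6.44 and 6.47 in wild type and 8.65 and 8.75 in transgenic hearts (2.25 ± 0.20, adjusted p = 0.00622). Ckmt1, the ubiquitous mitochondrial creatine kinase, read 6.56 and 6.24 against 8.54 and 8.56 (2.15 ± 0.21, adjusted p = 0.00764). Fxyd6, a regulator of the sodium pump, was bright and rose 2.53-fold, from 12.09 and 11.75 to 13.24 and 13.28 (1.34 ± 0.16, adjusted p = 0.0201). The transgenic arrays nearly coincided for Ckmt1 and Fxyd6. Of 19 tested genes of creatine and NAD metabolism Ckmt1 was the only one called, with 3 (15.8%, against 15.4% of all genes) wholly above and 8 (42.1%, against 16.7%) wholly below. With wild-type TAC 1 or else wild-type TAC 2 left out the adjusted p was 0.181 and 0.256 for Slc9a3, 0.180 and 0.299 for Ckmt1, and 0.173 and 0.394 for Fxyd6.

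The remaining 5 raised genes shared no list. Rnf208, a ring finger protein, read 6.59 and 6.14 in wild type and 8.67 and 8.78 in transgenic hearts (2.36 ± 0.23, adjusted p = 0.00764). Ttr, transthyretin, the carrier of thyroxine and retinol made by liver and choroid plexus, read 6.16 and 5.85 against 8.39 and 7.77 (2.08 ± 0.24). Cideb, a lipid droplet protein of liver, read 6.47 and 6.65 against 8.24 and 7.93 (1.53 ± 0.21). The transgenic arrays lay above both wild-type arrays in each of these. Tmem130 differed by 1.32 ± 0.18 and Mns1, a protein of cilia and flagella, by 1.03 ± 0.12. With wild-type TAC 1 or else wild-type TAC 2 left out the adjusted p was 0.136 and 0.271 for Rnf208, 0.2004 and 0.471 for Ttr, 0.703 and 0.523 for Cideb, 0.269 and 0.741 for Tmem130, and 0.248 and 0.476 for Mns1.

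Among lowered genes of actin and the Z-disc, Acta2 had the greatest decrease. It read 13.91 and 13.13 in wild-type and 11.40 and 11.77 in transgenic hearts, a 3.82-fold difference, and fell by 1.94 ± 0.25 on the log2 scale (adjusted p = 0.0272). Actg2, the actin of gut smooth muscle, read 7.70 and 7.38 against 5.95 and 6.28 and fell by 1.43 ± 0.20 (adjusted p = 0.0353). Pdlim3, the actinin-associated LIM protein, read 11.37 and 10.88 against 9.42 and 9.49 and fell by 1.67 ± 0.21 (adjusted p = 0.0258). Hopx, which binds SRF and holds it back from DNA, read 12.06 and 12.39 against 10.80 and 10.47 and fell by 1.59 ± 0.19 (adjusted p = 0.0201). In all 4 genes the lower wild-type array stayed above the higher transgenic array. With wild-type TAC 1 or else wild-type TAC 2 left out the adjusted p was 0.209 and 0.103 for Acta2, 0.269 and 0.256 for Actg2, 0.430 and 0.256 for Pdlim3, and 0.2004 and 0.476 for Hopx.

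The other 5 lowered genes act in transport and signalling. Slc24a2, a potassium-dependent sodium-calcium exchanger, read 8.12 and 8.09 in wild type and 6.41 and 6.59 in transgenic hearts (-1.60 ± 0.19, adjusted p = 0.0201), while 4 dim probes of the gene gave -0.21 to 0.06. Abcb4, the phosphatidylcholine transporter of bile canaliculi, read 9.69 and 9.90 against 8.18 and 8.41 (-1.50 ± 0.21, adjusted p = 0.0353). Aqp4, a water channel, read 7.39 and 7.33 against 6.08 and 5.88 (-1.38 ± 0.16, adjusted p = 0.0201). All 3 were apart by more than 1 between the nearest arrays of the groups. Rgs6, which switches off signalling of the cardiac muscarinic receptor, differed by -0.98 ± 0.14 (adjusted p = 0.0405). Wfikkn2, an inhibitor of myostatin, differed by -0.97 ± 0.14 (adjusted p = 0.0416), and the median over its probes gave 0.08. With wild-type TAC 1 or else wild-type TAC 2 left out the adjusted p was 0.248 and 0.346 for Slc24a2, 0.430 and 0.741 for Abcb4, 0.181 and 0.256 for Aqp4, 0.300 and 0.394 for Rgs6, and 0.248 and 0.471 for Wfikkn2.

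Of the 25 genes 9 had 1 probe and 16 had more. Their 32 other probes include 12 above the intensity filter, in 7 genes, and 11 of these 12 went the same way as the tested probe. Nrxn3 gave 3.97 by the tested probe and 3.62, 1.39 and 0.13 by the others. Acta2 gave -1.94 by the tested probe and -2.25, -2.11 and -1.72 by 3 others that passed the filter, while 2 dim probes gave -0.06 and 0.01. Vgll2 gave 2.57, 2.69 and 0.58, Pdlim3 gave -1.67 and -1.52, and Myl1 gave 0.97, 1.52 and, by a dim probe, 0.13. By the median over all of a gene's probes, dim ones included, Ric3 stood at 0.10, Hopx at -0.66 (adjusted p = 0.653) and Slc24a2 at -0.003, and Ric3 and Slc24a2 had adjusted p = 0.999. The second Hopx probe, at 5.01 to 5.37, lay below the filter and gave 0.26. Also below the filter lay the second probes of Sult4a1 (0.12), Slc9a3 (0.0009), Ckmt1 (0.03), Kif5c (0.04), St8sia5 (0.21) and Aqp4 (0.08). The calls of these genes, like that of Alx4, rest on the tested probe. The sources used here do not say which exons these probes match.

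**Figure D3:**
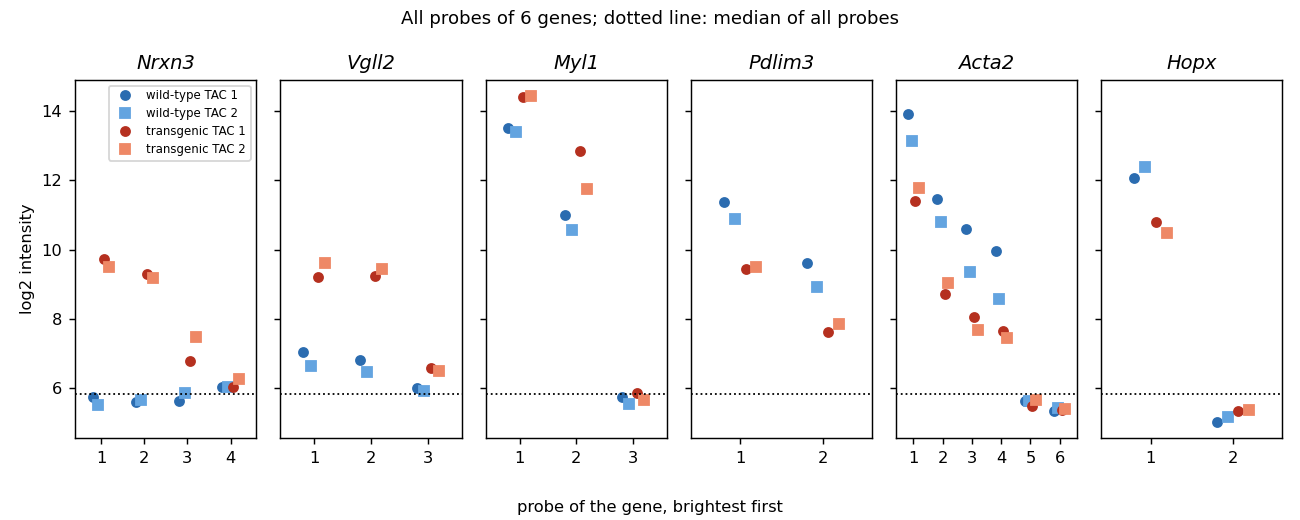
Log2 intensity (vertical axis) on the 2 wild-type TAC arrays (blue) and the 2 transgenic TAC arrays (red) for every probe (horizontal axis, brightest first) of Nrxn3, Vgll2, Myl1, Pdlim3, Acta2 and Hopx; the dotted line is the median of all probes, 5.82. Red points lie below blue ones on the 4 brighter Acta2 probes and above them on the 3 brighter Nrxn3 probes, and the 2 dimmest Acta2 probes and the dimmest probes of Nrxn3 and Myl1 show all 4 arrays near the dotted line.

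The smooth muscle genes as a group lay lower in transgenic hearts. Of 22 tested smooth muscle and pericyte markers 19 were lower and 3 higher, with a median of -0.31 beside -0.003 over all genes. Past the test were 2, Acta2 and Actg2, both lower, and 10 markers (45.5%) lay wholly below wild type against 16.7% of all genes, with none wholly above. Myl9, the regulatory light chain of smooth muscle myosin, read 9.94 and 9.63 in wild type and 8.38 and 8.64 in transgenic hearts (-1.27 ± 0.22, adjusted p = 0.0843). Myh11, the smooth muscle myosin heavy chain, read 9.17 and 8.62 against 7.69 and 8.41 (-0.85 ± 0.30). Smtn, smoothelin, stood at -0.70 ± 0.23, Abcc9, a potassium channel subunit, at -0.62 ± 0.20 and Tagln, transgelin, at -0.51 ± 0.20, none of them past the test. The summed intensity of the 22 markers was 51008 and 42996 in wild-type and 30019 and 39158 in transgenic hearts. The markers also differed between arrays of 1 genotype, with a median of 0.16 between wild-type TAC 1 and 2 and of -0.36 between transgenic TAC 1 and 2. The median between the transgenic arrays was thus larger in size than that between the genotypes. Endothelial markers lay on the same side, with 17 of 25 lower, none past the test, a median of -0.18 and -0.43 between transgenic TAC 1 and 2. Of them 3 (12%) lay wholly below and 3 (12%) wholly above, against 16.7% and 15.4% of all genes. Their part in the smooth muscle values was not tested. In whole hearts fewer cells of a type and less RNA per cell cannot be told apart.

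SRF itself and its cofactors were considered because SRF binds the Acta2, Actg2 and Acta1 genes. Srf read 10.99 and 10.80 in wild type and 10.72 and 10.81 in transgenic hearts (-0.13 ± 0.17), and the groups overlapped. Myocd, myocardin, read 10.33 and 10.77 against 9.64 and 10.03 (-0.71 ± 0.23, adjusted p = 0.588). Fhl2 read 12.96 and 13.15 against 12.39 and 11.77 (-0.97 ± 0.21, adjusted p = 0.198). Neither passed, though both transgenic arrays lay below wild type in each. Of the 10 tested genes of SRF and its cofactors 8 were lower, Hopx alone passed, and the median was -0.14.

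Of 28 tested SRF and MRTF targets 2 passed lower, Acta2 and Actg2, and none passed higher. By sign alone 17 were lower and 11 higher, and the median was -0.12. Wholly below wild type lay 9 targets (32.1%, against 16.7% of all genes) and wholly above lay 2 (7.14%, against 15.4%). The targets did not go one way. Egr1, an immediate early transcription factor, read 10.47 and 10.05 in wild type and 11.45 and 10.92 in transgenic hearts (0.93 ± 0.23, adjusted p = 0.336), whereas Acta1, skeletal actin, read 14.38 and 14.33 against 13.95 and 13.96 (-0.40 ± 0.11, adjusted p = 0.369). Of 14 tested LIM protein genes Pdlim3 passed, 6 (42.9%, against 16.7% of all genes) lay wholly below wild type and the median was -0.13. Csrp2, the cysteine-rich LIM protein of smooth muscle, stood at -0.80 ± 0.24 (adjusted p = 0.501). Fhl1, a LIM protein that rises in thickened hearts, read 13.97 and 13.71 against 14.15 and 13.95 (0.21 ± 0.13), with overlapping groups.

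The promoters of 5 of these genes are shown because they hold, or lack, a strict form of the element that SRF reads. Each window runs from 250 bases before to 50 bases after a transcription start (RefSeq, GRCm38.p6), 5′ to 3′ on the strand of the gene. Capitals mark CArG boxes in the strict form CCWWWWWWGG, where W is A or T, so a shorter or broken run is not counted. CATTCC, the core that TEAD factors read, is in capitals on either strand. Hopx, which fell, has 2 starts, and the window shown is at chr5:77115074-77115373 (minus strand) with a CArG box 83 bases upstream; the window of the other start holds none. Acta2, which fell, is at chr19:34255324-34255623 (minus strand) with CATTCC on the opposite strand and no CArG box in this strict form. Its window does hold CCCTATATGG and CCTTGTTTGG, runs of the full length in which a C and a G, respectively, break the stretch of A and T. Myl9, at chr2:156775214-156775513 (plus strand), has a CArG box 161 bases upstream. Acta1, at chr8:123894726-123895025 (minus strand), has a CArG box 73 and CATTCC 46 bases upstream. Fhl1, at chrX:56779433-56779732 (plus strand), has a CArG box 102 bases upstream of the start shown, and the window of its second start holds none.
Hopx: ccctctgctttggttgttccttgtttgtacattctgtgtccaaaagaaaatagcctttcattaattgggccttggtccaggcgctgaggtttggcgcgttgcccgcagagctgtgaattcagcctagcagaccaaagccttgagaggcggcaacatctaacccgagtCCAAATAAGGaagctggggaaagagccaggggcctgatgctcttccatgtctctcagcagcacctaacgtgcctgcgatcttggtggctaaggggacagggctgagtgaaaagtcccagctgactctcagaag
Acta2: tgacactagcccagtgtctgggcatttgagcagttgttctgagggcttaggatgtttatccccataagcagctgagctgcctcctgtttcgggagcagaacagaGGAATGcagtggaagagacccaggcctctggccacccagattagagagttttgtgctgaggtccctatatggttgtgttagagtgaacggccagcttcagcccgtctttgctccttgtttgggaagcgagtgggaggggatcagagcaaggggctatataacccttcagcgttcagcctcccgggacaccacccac
Myl9: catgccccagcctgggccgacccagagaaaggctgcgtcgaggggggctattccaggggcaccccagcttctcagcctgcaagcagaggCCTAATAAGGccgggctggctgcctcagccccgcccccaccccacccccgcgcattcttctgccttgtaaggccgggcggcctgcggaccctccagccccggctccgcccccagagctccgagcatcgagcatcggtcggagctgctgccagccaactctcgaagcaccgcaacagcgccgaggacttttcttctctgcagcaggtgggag
Acta1: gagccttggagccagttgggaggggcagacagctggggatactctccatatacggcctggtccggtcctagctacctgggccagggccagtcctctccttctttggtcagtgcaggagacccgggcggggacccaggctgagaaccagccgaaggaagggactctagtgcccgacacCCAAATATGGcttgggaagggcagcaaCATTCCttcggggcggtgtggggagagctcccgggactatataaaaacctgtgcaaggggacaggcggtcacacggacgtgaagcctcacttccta
Fhl1: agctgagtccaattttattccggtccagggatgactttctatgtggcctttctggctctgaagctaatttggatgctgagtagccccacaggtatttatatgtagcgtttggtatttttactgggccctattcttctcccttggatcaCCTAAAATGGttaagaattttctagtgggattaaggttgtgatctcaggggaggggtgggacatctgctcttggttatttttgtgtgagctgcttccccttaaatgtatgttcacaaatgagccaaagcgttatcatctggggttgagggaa

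A CArG box in the strict form stood in 1.63% of all 32851 promoter windows. It stood in 9 of 25 windows (36%) of the SRF and MRTF targets, a list made of known SRF targets. Of the raised genes 11 had windows, and 0 of their 14 windows held the box. Of the lowered genes 7 had windows, and 1 of their 9 windows held it, that of Hopx. Broken runs, such as those in the Acta2 window, are left out of all these counts. CATTCC on either strand stood in 14.7% of all windows, in 2 of the 14 windows of raised genes and in 3 of the 9 windows of lowered genes. The groups of windows are small, and a match describes the letters only.

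Of the genes usually followed in a loaded heart, Nppa, Nppb, Ankrd1, Myh6 and Myh7 did not pass. Nppa, atrial natriuretic peptide, read 14.39 and 14.47 in wild type and 14.33 and 14.45 in transgenic hearts (-0.04 ± 0.11). Nppb, brain natriuretic peptide, stood at 0.15 ± 0.11 and Ankrd1, a stress-induced Z-disc protein, at -0.03 ± 0.12. These 3 probes lay near the top of the intensity range; the highest intensity on each array was 25873. Myh7, the slow myosin heavy chain, read 10.88 and 8.61 in wild type and 11.72 and 9.995 in transgenic hearts (1.11 ± 0.72), with overlapping groups; without wild-type TAC 2 the difference was -0.02. Myh6, the fast heavy chain, gave 0.11 ± 0.12 with its tested probe and -0.89 with a second one. Of the 15 tested fetal and hypertrophic genes Acta2 alone passed, 9 were higher and the median was 0.08.

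Some genes of this kind lay wholly above wild type without passing. Nmrk2, a nicotinamide riboside kinase of stressed muscle, read 11.63 and 10.95 in wild type and 12.42 and 12.39 in transgenic hearts (1.12 ± 0.22, adjusted p = 0.148); a second probe gave 1.12 and a dimmer one, above the filter, gave -0.75. Rcan1, a calcineurin regulator, stood at 0.78 ± 0.24 and Camk2b, a calcium-dependent kinase, at 0.76 ± 0.22. Abra, an actin-binding protein of striated muscle, read 10.83 and 10.37 against 11.76 and 11.94 (1.25 ± 0.20, adjusted p = 0.0598). Of the 30 tested genes in the list of contractile and Z-disc genes none passed, and their median was 0.05. That list does not include Pdlim3 or Myl1, which passed.

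Several further genes stood just outside the threshold. Inside it, St8sia5 had adjusted p = 0.0365, Rgs6 0.0405 and Wfikkn2 0.0416. Outside it, Mthfd2, an enzyme of mitochondrial folate metabolism, read 8.86 and 8.28 in wild type and 10.11 and 10.72 in transgenic hearts (1.84 ± 0.28, adjusted p = 0.0535). Gsta1, a glutathione transferase, read 5.97 and 6.18 against 7.11 and 7.46 (1.21 ± 0.18, adjusted p = 0.0535). Ces1d, a carboxylesterase that acts on stored lipid, read 11.04 and 11.85 against 9.84 and 9.10 (-1.98 ± 0.31, adjusted p = 0.0636). The groups did not overlap in these 3 genes. Dusp4, a phosphatase of MAP kinases, stood at 1.12 ± 0.17 (adjusted p = 0.0539), Fads6 at 1.43 ± 0.23 (0.0639), Pacsin1 at -1.01 ± 0.16 (0.0589) and Slc38a3, a glutamine transporter, at -1.20 ± 0.20 (0.0843).

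Lists of metabolism held 1 called gene, Ckmt1. Of 36 tested genes of fatty acid uptake and oxidation 29 were lower, with a median of -0.09. Wholly below wild type lay 9 (25.0%, against 16.7% of all genes), and 0 lay wholly above, against 15.4%. Acot1, an acyl-CoA thioesterase, read 9.20 and 9.57 in wild type and 8.91 and 8.35 in transgenic hearts (-0.76 ± 0.25, adjusted p = 0.640). Of 38 genes of respiratory complex I 32 were lower, but the median was -0.08, and 11 (28.9%, against 16.7% of all genes) lay wholly below. Ndufb7, a subunit of that complex, had the greatest difference of them at -0.45 ± 0.18. For fatty acid genes the median difference between the transgenic arrays themselves was 0.32, larger than between the genotypes.

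Genes of serine, folate and asparagine synthesis leaned the other way. Of 20 tested, 15 were higher, and the median was 0.17. Wholly above wild type lay 8 (40.0%, against 15.4% of all genes), and wholly below lay 3 (15%, against 16.7%). Beside Mthfd2, Asns, asparagine synthetase, read 7.81 and 7.39 in wild type and 8.54 and 8.67 in transgenic hearts (1.01 ± 0.23, adjusted p = 0.248), and Shmt1, serine hydroxymethyltransferase, read 6.89 and 7.16 against 7.92 and 7.88 (0.88 ± 0.20, adjusted p = 0.274). Of 24 antioxidant and metallothionein genes 18 were higher, 8 (33.3%, against 15.4% of all genes) wholly so. Their median was 0.12, and Gstm2, a glutathione transferase, stood at 0.49 ± 0.13. Of 19 genes of protein folding in the endoplasmic reticulum 15 were higher, and 5 (26.3%, against 15.4% of all genes) lay wholly above. Their median was 0.16, and Pdia3, a disulfide isomerase, stood at 0.48 ± 0.20. No gene of these 3 lists passed the test.

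No potassium or sodium channel gene of the lists passed. Of 22 tested potassium channel genes 16 were lower, 7 (31.8%, against 16.7% of all genes) wholly so, and the median was -0.18. Kcnd2, a subunit of the transient outward current, read 8.18 and 8.12 in wild type and 7.13 and 6.69 in transgenic hearts (-1.24 ± 0.22, adjusted p = 0.106). Kcnh2, which carries the rapid delayed rectifier current, read 9.32 and 9.40 against 8.65 and 8.58 (-0.75 ± 0.20, adjusted p = 0.368). Scn4b, a sodium channel subunit, read 8.99 and 9.55 in wild type and 10.96 and 10.37 in transgenic hearts (1.39 ± 0.27, adjusted p = 0.133). Of 36 calcium cycling genes 11 (30.6%, against 16.7% of all genes) lay wholly below and 2 (5.56%, against 15.4%) wholly above, with a median of -0.04.

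Immune lists held no called gene. Of 7 tested MHC class II genes, which present antigen, 6 were higher and 4 (57.1%, against 15.4% of all genes) wholly so, with a median of 0.42. Their median was -0.34 between wild-type TAC 1 and 2 and 0.22 between transgenic TAC 1 and 2. Cd74, the invariant chain, read 9.58 and 10.11 in wild type and 10.74 and 10.53 in transgenic hearts (0.79 ± 0.22, adjusted p = 0.422). Of 19 complement and acute phase genes 12 were lower, 7 (36.8%, against 16.7% of all genes) wholly so. Serpina3n, a protease inhibitor, read 10.96 and 10.91 against 10.11 and 10.03 (-0.87 ± 0.17, adjusted p = 0.148), C4a stood at -0.94 ± 0.24 and Cxcl12, a chemokine, at -0.64 ± 0.16. Cp, the ferroxidase ceruloplasmin, was higher, at 9.96 and 9.68 against 10.92 and 10.86 (1.07 ± 0.18, adjusted p = 0.0931). Macrophage markers had a median of 0.09 over 22 genes.

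**Figure D4:**
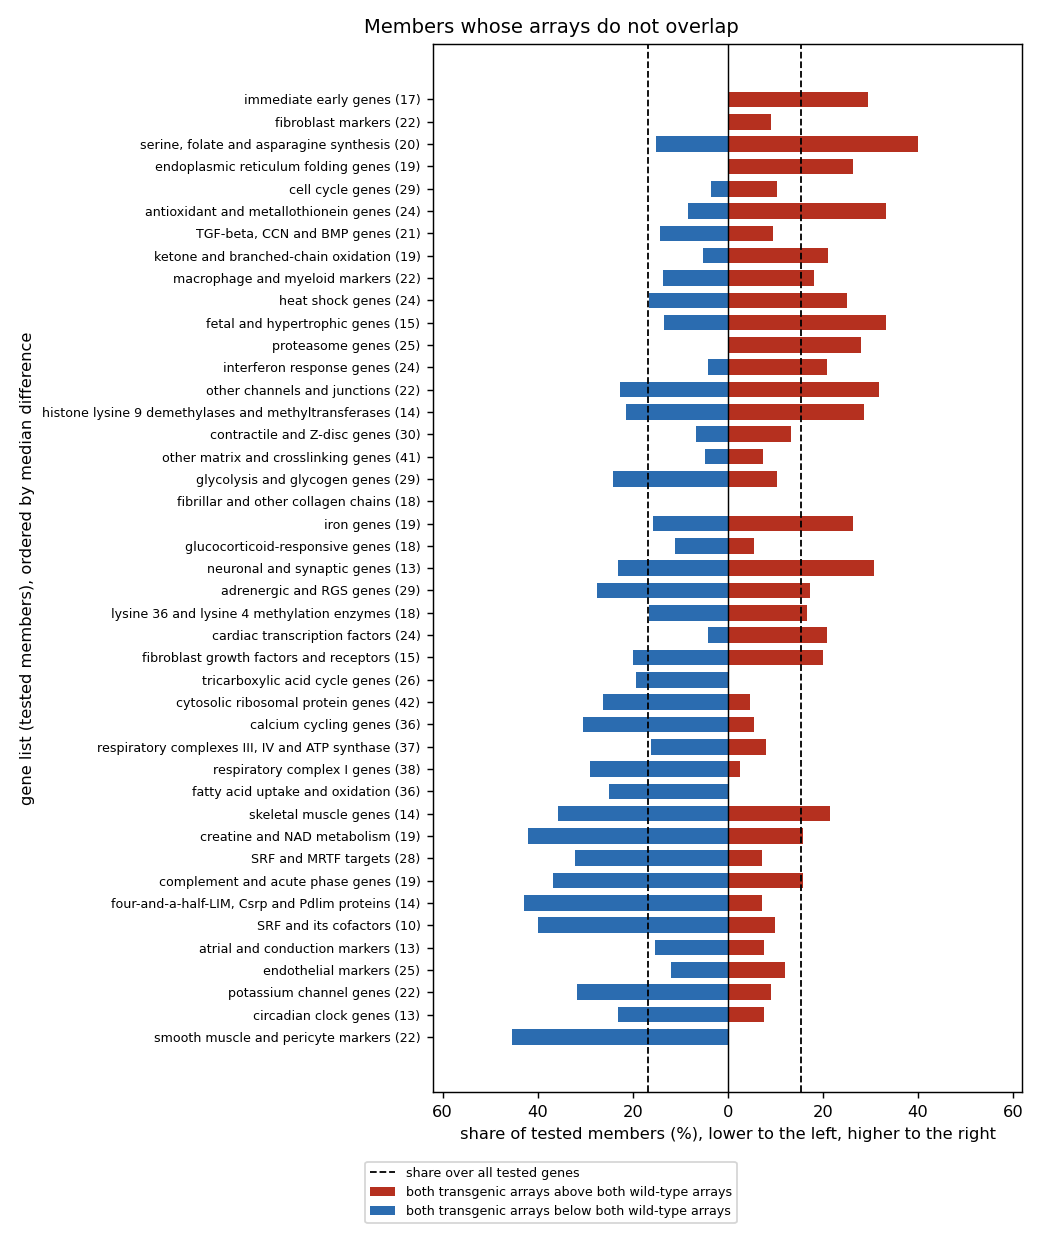
Share of each list's tested genes (percent, horizontal axis) whose 2 transgenic TAC arrays lay both above or both below the 2 wild-type TAC arrays, for the gene lists with at least 10 tested genes (number in brackets); the dashed lines give the shares over all tested genes, 15.4% above and 16.7% below. Smooth muscle and pericyte markers have 45.5% below and none above, and serine, folate and asparagine synthesis genes have 40.0% above.

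Matrix genes lay further apart between the arrays of 1 genotype than between the genotypes. Of 18 tested collagen chains 0 lay wholly above or below, and their median difference was 0.03, while wild-type TAC 1 stood above wild-type TAC 2 by a median of 0.67 in 17 of 18 chains. Transgenic TAC 1 stood below transgenic TAC 2 by a median of 0.75 (-0.75), and was above it in 2 of 18. The same opposite order held for 41 other matrix genes (0.49 and -0.48, with 0.05 between the genotypes) and for 22 fibroblast markers (0.49 and -0.52, with 0.17 between the genotypes). Ccn2, connective tissue growth factor, read 13.81 and 12.84 in wild type and 13.50 and 14.04 in transgenic hearts. Timp1, an inhibitor of metalloproteases, read 10.05 and 8.90 against 8.73 and 9.33. Both overlapped between the groups. Postn, periostin, had 3 probes, all below the intensity filter.

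Atrial and conduction markers also varied more between arrays than between the genotypes. Sln, sarcolipin of the atria, read 10.50 and 7.35 in wild type and 6.04 and 8.09 in transgenic hearts. Myl7, the atrial regulatory light chain, read 9.09 and 6.90 against 5.50 and 7.15, and Myl4, the atrial alkali light chain, read 12.48 and 9.84 against 9.03 and 10.80. In all 3 genes wild-type TAC 1 was the highest array and transgenic TAC 1 the lowest. The 13 tested markers had a median difference of -0.17, and of 0.22 and -0.58 between array 1 and 2 within wild type and within transgenic hearts. The part of this spread in the differences between the genotypes was not tested.

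**Figure D5:**
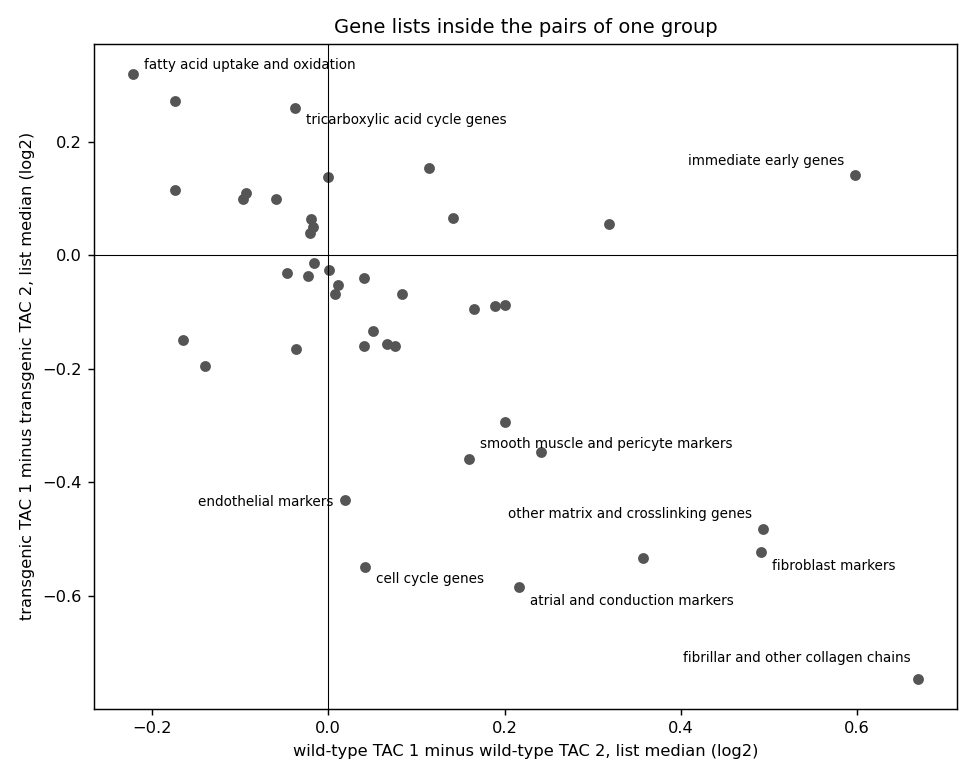
Median log2 difference of each gene list with at least 10 tested genes between wild-type TAC 1 and 2 (horizontal axis) and between transgenic TAC 1 and 2 (vertical axis). Collagen chains stand at 0.67 and -0.75, and fatty acid genes at -0.22 and 0.32.

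No enzyme or reader of the histone marks that JMJD2A removes passed the test. Of 14 tested demethylases, methyltransferases and readers of lysine 9, 9 were higher and 5 lower, and the median was 0.05. Phf2, a lysine 9 demethylase, read 9.18 and 8.80 in wild type and 8.55 and 8.71 in transgenic hearts (-0.36 ± 0.22). Of 18 enzymes of lysine 36 and lysine 4 methylation none passed. Among the 50 lists 11 held a gene past the test, and lists share genes, so their values are not independent.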

How the data were processed

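The deposited table of the authors gives 1 linear intensity per probe and array (45281 probes, 30.83 to 25873). Its sorted columns differed by at most 0.00644 on the log2 scale and its array medians lay between 56.35 and 56.36, the pattern that quantile normalization leaves; the sources used here do not name the software, background correction or normalization. The deposited scaling was kept, 8 values below 32 were set to 32, log2 was taken, and background was not subtracted. Per the labels' protocols, Trizol-extracted, DNase-treated RNA was amplified and labelled with biotin (TotalPrep kit).

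The platform annotation gave 34885 probes 1 gene symbol, 18 several and 10378 none. Each of 19057 genes took its brightest probe (mean of the 4 arrays), and the 11141 genes above the 50th percentile of these probes (intensity 58.8) were tested in limma 3.58.1 under R 4.3.3 (lmFit, then eBayes with a trend on intensity), 2 against 2 arrays, with 2 residual and 6.39 prior degrees of freedom and Benjamini-Hochberg adjustment. An exact permutation test of 2 against 2 cannot go below p = 0.333, two-sided, and was not used. Steps were tested on simulated data, and 16 other settings were tried.

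Up to 15 increases and 15 decreases past the test without overlap were named by size, predicted genes passed over, beside genes always considered and up to 4 genes per list of smallest p. A list is described by counts and medians, with no test of its own; lists matched by symbol. The members and the 50 lists were chosen with earlier results of these data known.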

Additional observations from a re-analysis of the deposited data

Results flagged for a closer look

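The sham-operated arrays, 1 of each genotype, enter no comparison above. The genes past the test after TAC were set against them. All 25 had the same sign in the sham pair, where 64.8% of all tested genes had the sign they had after TAC, and 20 of the 25 were at least 1 apart on the log2 scale in that direction. With 1 array a group this difference has no replicate check. Higher in the transgenic sham array were Nrxn3 by 4.39, Sult4a1 by 3.48, Slc9a3 by 2.38, Rnf208 by 2.31, Vgll2 by 2.09, Ttr by 2.03, Ric3 by 1.89, Ckmt1 by 1.75, Cideb by 1.74, Kif5c by 1.35, Alx4 by 1.31, Tmem130 by 1.25, St8sia5 by 1.24, Fxyd6 by 1.06 and Mns1 by 1.01. Lower there were Hopx (-1.97), Abcb4 (-1.39), Rgs6 (-1.38), Acta2 (-1.14) and Wfikkn2 (-1.01). The other 5 genes were less than 1 apart: Slc24a2 at -0.88, Pdlim3 at -0.59, Myl1 at 0.55, Actg2 at -0.32 and Aqp4 at -0.12. In a limma fit of all 6 arrays the difference between the 2 genotype effects had an unadjusted p of 0.00281 for Aqp4, 0.00881 for Actg2 and 0.0174 for Pdlim3, and an adjusted p of 1.00 for all of them. With 1 sham array a genotype that test has little power, so it leaves unsettled whether these genes differed between surgeries. The same holds for the raised gene Alx4, at 2.37 after TAC and 1.31 in the sham pair. Its unadjusted p in that fit lay between those of Aqp4 and Actg2.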

How the results depend on the processing

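The count of 25 genes (16 higher, 9 lower, in 11 lists) was the same under normexp background correction, and a robust fit gave 26 (17 higher, 9 lower, in 12 lists). It was 40 (16 lower) with no filter on dim probes, 11 (7 higher, 4 lower) with a stricter one, 8 (7 and 1, in 5 lists) without the floor and with median centring, and 8 (7 and 1, in 5 lists) without the intensity trend. Cyclic loess left 5 lower genes and 7 lists, the median over probes left 5 genes (5 higher, 0 lower, in 3 lists), and every probe tested by itself gave 9 probes (9 higher, 0 lower). In the fit of all 6 arrays 22 genes passed, all among the 25, and with Xist as a covariate 25 passed, of which 14 were among the 25. With the replicate number as a block 66 genes passed (45 higher, 21 lower, in 20 lists), all 25 among them. Deviations of same-numbered arrays correlated at -0.03 over genes, with only 2 pairs, so the numbers are not taken to pair the arrays.

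Without 1 array the count ran from 1 to 190, with 1 to 133 higher and 0 to 57 lower genes in 1 to 31 lists. In these fits the lone array is assumed to vary like the other pair. Directions turned only in genes that did not pass, apart from Wfikkn2: by the median over probes Ankrd1 stood at 0.064, Myh6 at -0.39, Myh8 at 0.50, Srf at 0.032 and Wfikkn2 at 0.075, and with Xist as a covariate Ccn2 at -0.10 and Pf4 at 0.21. Without 1 array Ankrd1 ranged from -0.11 to 0.058, Ccn2 from -0.038 to 0.93, Kdm4a from -0.13 to 0.18, Myh6 from -0.017 to 0.23, Myh7 from -0.021 to 2.24, Nppa from -0.10 to 0.026, Pf4 from -0.55 to 0.22 and Timp1 from -1.02 to 0.13. The cause was not tested in any of these. Dim signals limit the fold changes of raised genes in wild type and of 5 of the 9 lowered genes in transgenic hearts, with means below log2 7.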

Other observations

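Values of 8 genes known from platelets are given here; they were chosen after their values were seen, none passed the test, and they were not tested as a group. Ppbp, a platelet chemokine, read 7.96 and 9.25 in wild type and 6.73 and 6.98 in transgenic hearts (-1.75 ± 0.38, adjusted p = 0.201). Tubb1, the tubulin of platelets, read 7.25 and 7.97 against 6.14 and 6.34 (-1.37 ± 0.25, adjusted p = 0.106). Alox12, the platelet lipoxygenase, stood at -1.09 ± 0.25, Treml1 at -0.92 ± 0.21, and the surface glycoprotein genes Gp9 at -0.88 ± 0.19 and Gp1bb at -0.78 ± 0.15. In these 6 genes both transgenic arrays lay below both wild-type arrays, as they did in 16.7% of all tested genes. Since the genes were picked by their values, the count is no result about platelet genes. Pf4 (-0.16 ± 0.31) and Itga2b (-0.30 ± 0.21), also of platelets, did overlap, and Pf4 ranged from -0.55 to 0.22 without 1 array.

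The transgenic arrays differed from each other in several genes that did not pass between the genotypes. Acaa2, a thiolase of fatty acid oxidation, read 11.59 in transgenic TAC 1 and 8.48 in transgenic TAC 2, with 10.65 and 10.50 in wild type between them. The histone gene H2ac7 read 9.23 and 11.61, with 10.25 and 10.21 in wild type, and Prc1, which acts in cell division, read 7.21 and 9.05. Of 29 tested cell cycle genes 4 were higher in transgenic TAC 1 than in transgenic TAC 2, with a median of -0.55, while the median between the genotypes was 0.13. Circadian clock genes had a median of -0.22 between the genotypes over 13 genes, with Dbp at -0.82 ± 0.23 and Ciart at -1.09 ± 0.36, and 0.36 and -0.53 within the pairs. Immediate early genes had a median of 0.18 between the genotypes over 17 genes, with Egr3 at 1.05 ± 0.35 and Egr2 at 0.82 ± 0.27, and were higher in wild-type TAC 1 than in wild-type TAC 2 in 17 of 17. The sources used here do not give the hour at which hearts were taken.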
